A study of Mus musculus with 18 samples.

Results

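The enzymes that break down glycogen and glucose in muscle were followed here through 9 genes, Aldoa, Pkm, Ldha, Ldhb, Eno3, Pgam2, Pygm, Phkg1 and Slc37a4. They are 9 of the 8251 genes that have a probe set with a single symbol on the array. A probe set was counted as theirs when its only gene symbol in the array's annotation was one of these names, which gave 12 of 12488 probe sets, of which 11 were bright enough to be tested. The RNA came from leg muscle, heart and extraocular muscle, the small muscles that turn the eyeball, and each of 18 mouse expression arrays made by Affymetrix carried 1 sample, with 3 samples in a group and 6 groups. All animals were 8 weeks old. The control groups were mdx mice, which carry a defect in the gene for dystrophin, and the other groups were dko mice. In common usage dko mice lack both dystrophin and utrophin, so that loss of dystrophin would be shared by all 6 groups, but the labels do not expand the term. Strain, sex, the leg muscle taken and any pooling of animals are not given in the sources used here, and no treatment is named. The labels number the replicates of a group from 1 to 3 but do not say whether a number stands for an animal, so the spread behind the p-values could be technical only.

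Muscle stores glucose as glycogen. Phosphorylase releases sugar phosphate from it when phosphorylase kinase has switched phosphorylase on, glycolysis turns the sugar phosphate into pyruvate, and lactate dehydrogenase exchanges pyruvate and lactate. Fast fibres depend most on this route and are rich in the muscle forms of its enzymes and in the A subunit of lactate dehydrogenase, whereas heart oxidizes lactate and is rich in the B subunit. Slc37a4 is the exception among the 9: it encodes a carrier of glucose-6-phosphate into the endoplasmic reticulum and is not an enzyme of the pathway.

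RefSeq promoter sequence (build GRCm38.p6) was found for 9 of the 9 genes, with 15 entries in all, and the 250 bases before the start were read. The windows of 4 genes are shown as examples: Ldha and Ldhb as the subunit pair, Pgam2 as a muscle form, and Slc37a4 as a gene that was highest in leg. The positions are chr7:46845554-46845803 on the plus strand for Ldha, chr6:142507958-142508207 on the minus strand for Ldhb, chr11:5803797-5804046 on the minus strand for Pgam2 and chr9:44396696-44396945 on the plus strand for Slc37a4, each the first entry of its gene.
Ldha: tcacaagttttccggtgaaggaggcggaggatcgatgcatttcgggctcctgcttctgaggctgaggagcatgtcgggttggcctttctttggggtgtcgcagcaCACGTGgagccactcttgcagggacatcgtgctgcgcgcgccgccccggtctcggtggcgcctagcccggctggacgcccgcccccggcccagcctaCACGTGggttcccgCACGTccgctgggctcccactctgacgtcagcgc
Ldhb: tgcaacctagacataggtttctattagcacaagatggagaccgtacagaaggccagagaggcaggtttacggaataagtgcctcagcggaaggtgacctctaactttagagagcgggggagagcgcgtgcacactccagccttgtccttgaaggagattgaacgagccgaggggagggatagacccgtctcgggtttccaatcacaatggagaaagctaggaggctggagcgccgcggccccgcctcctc
Pgam2: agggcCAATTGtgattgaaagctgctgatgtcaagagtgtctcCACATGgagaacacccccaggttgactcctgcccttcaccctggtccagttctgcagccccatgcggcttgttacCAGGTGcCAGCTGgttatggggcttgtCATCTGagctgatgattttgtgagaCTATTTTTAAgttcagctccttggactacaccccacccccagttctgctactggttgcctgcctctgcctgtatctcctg
Slc37a4: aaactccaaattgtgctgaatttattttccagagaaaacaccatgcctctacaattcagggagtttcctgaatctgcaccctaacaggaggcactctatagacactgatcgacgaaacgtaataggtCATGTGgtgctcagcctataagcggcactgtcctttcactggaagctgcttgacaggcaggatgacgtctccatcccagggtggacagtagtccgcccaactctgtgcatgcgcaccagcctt
Capitals mark matches to 3 motifs searched on both strands: the E-box CANNTG, bound by the MyoD family and by many other factors, the hypoxia-response core ACGTG, and the consensus of MEF2, a muscle transcription factor. An E-box was present in the first entry of 8 of the 9 genes, against 66.2% of 32851 mouse promoter windows of the same length. The exception was Ldhb, whose window holds none of the 3 motifs. The hypoxia-response core was present in 2 of the 9 first entries, those of Ldha and Pygm, against 16.6% of all windows. Ldha had 5 such matches counted on both strands, and 2 of its sites are palindromes that count as E-boxes too. The MEF2 consensus was present in the Pgam2 window alone among the 9, against 2.92% of all windows. These matches describe the letters of the windows.

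The labels were checked on genes outside the pathway. The utrophin gene Utrn read 220.2 to 414.3 on the dko extraocular arrays against 553.3 to 1086.5 on the mdx ones, 239.6 to 298.2 against 437.6 to 550.7 in leg, and 219.9 to 292.3 against 587.6 to 672.1 in heart. The heart myosin gene Myh6 averaged 35190 in mdx heart and 32090 in dko heart and at most 1242 in any skeletal group, and the fast myosin gene Myh1 averaged 35020 to 41960 in the skeletal groups and at most 246.9 in heart. Of 6 genes listed as extraocular markers 3 were measured, and they gave no clear check of that label. Myh14 and Myh6 averaged more in mdx extraocular muscle than in mdx leg (3694 against 2767 and 1242 against 78.9). Both were highest in heart, where Myh6 could not serve as an extraocular marker. Pitx3 was lower in mdx extraocular muscle than in mdx leg (260.1 against 522.4). The dko means had the same directions, and none of the 3 differed from leg at the threshold used below without the block. Every array had been scaled to nearly the same trimmed mean (1500.69 to 1501.15). In every group the array numbered 3 differed from the other two, with medians of 525.6 to 573.75 against 612.6 to 671.8 and maxima of 47024 to 74434 against 33355 to 47589. Because arrays that share a number and a tissue deviated alike in both genotypes, each adjusted p is given first without the replicate number as a block and then, where the call changes, with it.

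Values below are intensities on a linear scale, given in the order of replicates 1, 2 and 3. Log2 differences (± SE) were taken after an offset of 166.1 was added, so folds of dim probe sets are understated. The p-values come from limma fitted to all 8895 probe sets tested, adjusted over all of them by the method of Benjamini and Hochberg, and a difference was called at an adjusted p under 0.05. Intensities of different probe sets are not compared with each other. Since these are whole tissues, fewer cells of a type and less RNA per cell cannot be told apart.

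**Figure D1:**
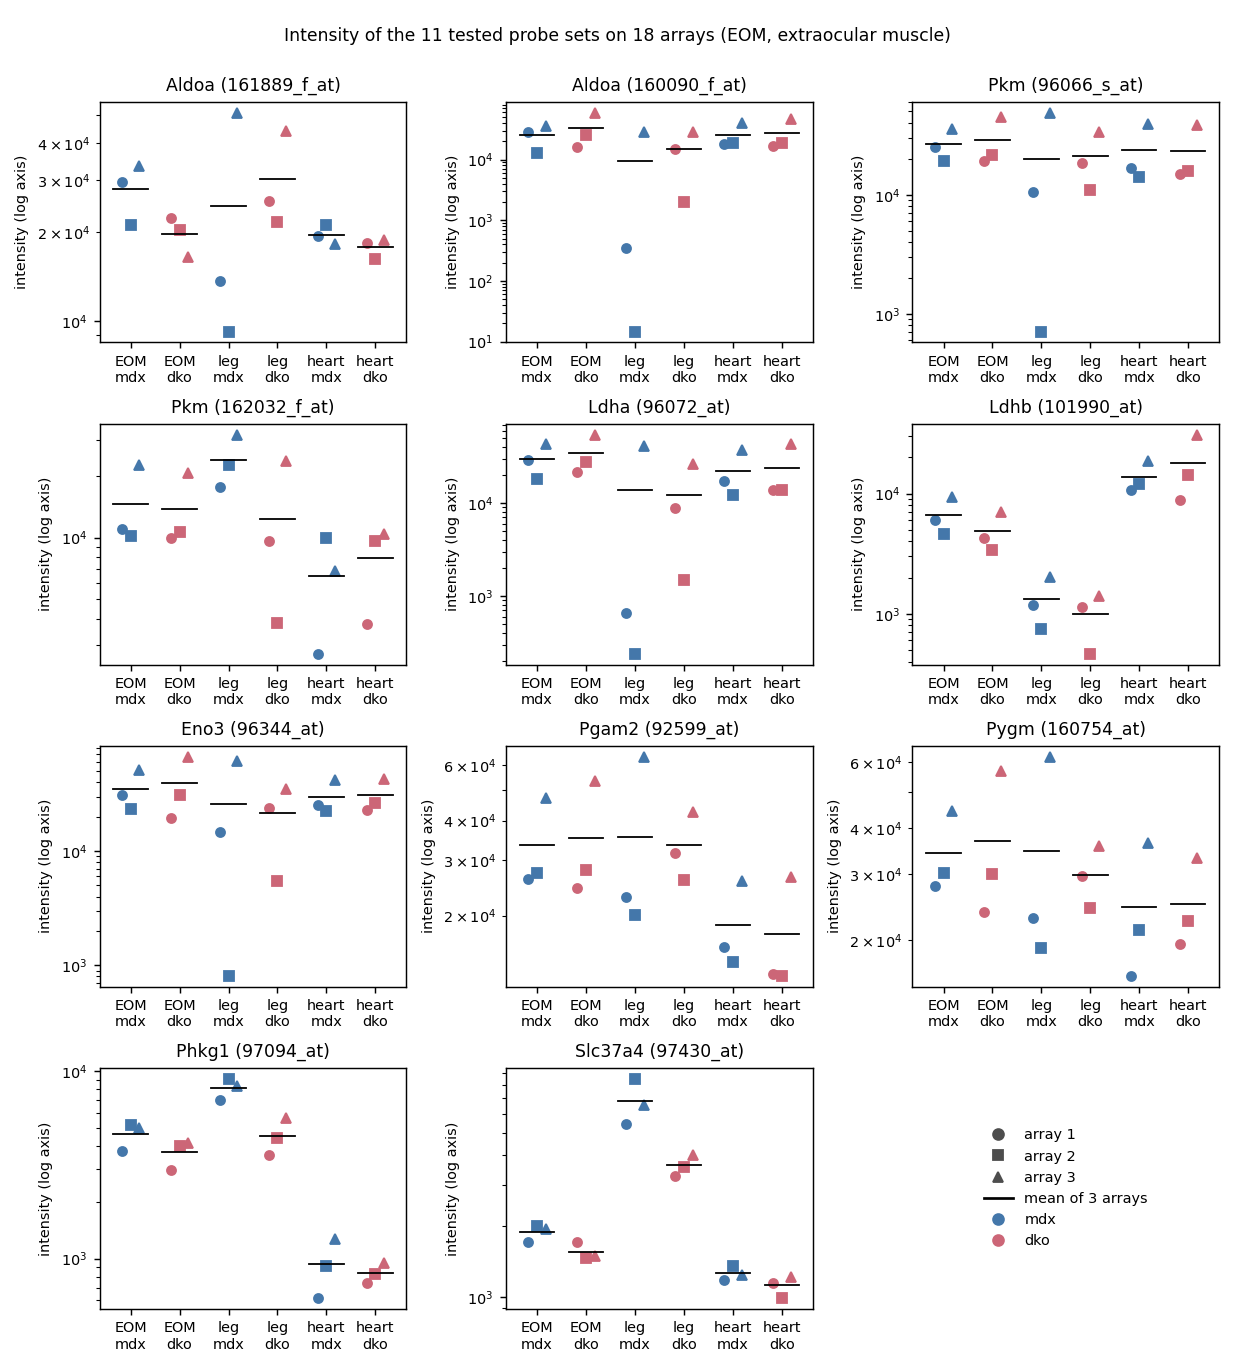
Intensity (log axis) of the 11 tested probe sets on each of the 18 arrays, by tissue and genotype (EOM, extraocular muscle); circles, squares and triangles are arrays 1, 2 and 3, blue is mdx, red is dko and the bar is the mean of 3. Ldhb is lowest in leg and highest in heart, Phkg1 and Slc37a4 are highest in leg of mdx mice, and several bright probe sets spread widely between the leg arrays.

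Glycogen breakdown was represented by Pygm and Phkg1. Pygm encodes muscle glycogen phosphorylase, the enzyme missing in McArdle disease. Its probe set, 160754_at, read 28013, 30202 and 44347 in mdx extraocular muscle and 23839, 30141 and 56694 in dko extraocular muscle. In leg it read 22945, 19116 and 61931 in mdx and 29722, 24406 and 35681 in dko. In heart it read 16068, 21296 and 36322 in mdx and 19524, 22524 and 33159.7 in dko. Array 3 was the highest in all 6 groups, and dko and mdx arrays overlapped in each tissue. The 6 group means lay within 1.5-fold of each other, from 24560 ± 10500 (SD, n = 3) in mdx heart to 36890 ± 17400 in dko extraocular muscle. Pygm passed in none of the tissue or genotype comparisons, with or without the block. The interval for dko against mdx in leg ran from -0.94 to 0.89 on the log2 scale.

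Phkg1 encodes the catalytic subunit of phosphorylase kinase found in skeletal muscle. In leg it read 6998, 9098 and 8392 in mdx and 3565, 4424 and 5597 in dko. Extraocular muscle gave 3749, 5164 and 4998 in mdx and 2985, 3968 and 4154 in dko. Heart gave 617.2, 907.6 and 1264 in mdx and 739.6, 827.4 and 943.6 in dko. All heart arrays lay below all skeletal muscle arrays in both genotypes, and in mdx all extraocular arrays lay below all leg arrays. In mdx, Phkg1 was 7.79-fold lower in heart than in leg (log2 difference -2.96 ± 0.24, adjusted p = 4.05e-07) and 4.47-fold higher in extraocular muscle than in heart (adjusted p = 1.71e-05). The dko arrays gave the same order, 4.62-fold lower in heart than in leg (adjusted p = 9.35e-06) and 3.83-fold higher in extraocular muscle than in heart (adjusted p = 4.45e-05). The step from leg to extraocular muscle in mdx was -0.80 ± 0.24 on the log2 scale and passed with the block (adjusted p = 0.00162) but not without it (0.0847). In dko that step was -0.27 and the arrays overlapped (adjusted p = 0.919, and 0.286 with the block).

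Slc37a4 followed the same order of tissues as Phkg1 in mdx mice. Leg arrays read 5452, 8453 and 6556 in mdx and 3281, 3579 and 4027 in dko. In extraocular muscle the values were 1712, 2009 and 1953 in mdx and 1706, 1462 and 1499.8 in dko. Heart values were 1184, 1361 and 1237 in mdx and 1149, 993.3 and 1221 in dko. Leg lay above both other tissues on all arrays of either genotype, and the arrays numbered 3 did not stand apart, being highest in 2 of the 6 groups. In mdx the level was 3.35-fold lower in extraocular muscle than in leg (-1.74 ± 0.18, adjusted p = 3.26e-05) and 4.83-fold lower in heart than in leg (adjusted p = 2.89e-07). In dko the corresponding differences were -1.14 (adjusted p = 0.00253) and -1.56 (adjusted p = 1.71e-05). Without the arrays numbered 3 the dko extraocular difference was -1.04 and no longer passed (adjusted p = 0.0823). Extraocular muscle exceeded heart by 0.53 in mdx, which passed only with the block (adjusted p = 0.107 without and 0.0274 with it). That call was lost when any 1 of the 6 arrays compared was left out (adjusted p 0.0573 to 0.0936).

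Of the glycolytic enzymes, Aldoa encodes aldolase A, which splits the sugar bisphosphate into triose phosphates, and its pair of probe sets disagreed. Probe set 161889_f_at read 29468, 21082 and 33476 in mdx and 22294, 20344 and 16479 in dko extraocular muscle. It read 13679, 9216 and 50740 in mdx leg and 25439, 21646 and 43988 in dko leg. Heart gave 19446, 21205 and 18189.9 in mdx and 18319, 16248 and 18812 in dko. On this probe set the tissues overlapped in all comparisons but dko heart against dko leg, where the heart arrays were lower (-0.70 ± 0.45, adjusted p = 0.445), and none passed. Probe set 160090_f_at read 28132, 12647 and 35389.5 in mdx and 16385, 25505 and 58977 in dko extraocular muscle. In leg it was scattered, at 344.5, 14.7 and 28446 in mdx and 14757, 2031 and 28467 in dko. Heart values were 18267, 18557 and 39696 in mdx and 16669.8, 18646 and 47233 in dko. Its mdx differences were 4.08 ± 1.35 for extraocular muscle against leg and 4.12 ± 1.35 for heart against leg. On all arrays these passed with the block but not without it (adjusted p = 0.13 and 0.0709 without, 0.0122 and 0.00637 with it). The blocked extraocular call was lost without array 1 or 2 of mdx leg or array 1 of mdx extraocular muscle (adjusted p up to 0.0742), and the blocked heart call held with each array left out. The other probe set gave 0.56 and 0.07 for the same comparisons. Both probe sets carry the suffix _f_at, which Affymetrix gave to sets that may also read related transcripts.

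Pgam2 encodes the muscle form of phosphoglycerate mutase. It read 26117, 27385 and 47279 in mdx extraocular muscle and 24546, 27921 and 53443 in dko extraocular muscle. Leg gave 23001, 20121 and 63715 in mdx and 31661, 25958 and 42629 in dko. Heart gave 15869, 14266 and 25836 in mdx and 13018, 12906 and 26492 in dko. Within each replicate number heart was the lowest tissue in both genotypes, although array 3 of heart reached the level of arrays 1 and 2 of the skeletal muscles. Heart differed from leg by -0.77 ± 0.44 in mdx and by -0.98 ± 0.44 in dko on the log2 scale. On all arrays as deposited these passed with the block but not without it (adjusted p = 0.377 and 0.211 without, 0.00593 and 0.000982 with it). Extraocular muscle lay above heart by 0.84 in mdx and 1.01 in dko. These too passed with the block but not without it (adjusted p = 0.384 and 0.239 without, 0.00456 and 0.00108 with it). These 4 blocked calls held when each array was left out in turn.

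Eno3 encodes the muscle enolase. It read 31161, 23387 and 51152 in mdx extraocular muscle and 19654, 30939 and 66657 in dko extraocular muscle. In leg the arrays gave 14637, 811.6 and 61321 in mdx and 23868, 5502 and 34813 in dko. Heart read 25205, 22640.4 and 41572 in mdx and 23014, 26299 and 42998 in dko. Replicate 2 was the lowest leg array in each genotype and replicate 3 was the highest array in all 6 groups. Eno3 passed in none of the comparisons in either fit. Its extraocular difference from leg in mdx was 1.80 ± 1.05, with an interval of -0.43 to 4.04.

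Pkm encodes the pyruvate kinase of muscle and many other tissues, whose splice forms were not told apart here, and its probe sets disagreed too. Probe set 96066_s_at read 25237, 19288 and 35971 in mdx extraocular muscle and 19356, 21606 and 44781 in dko extraocular muscle. In leg it read 10632, 709.2 and 48783 in mdx and 18424, 10949 and 33687 in dko. Heart gave 16784, 14187 and 39608 in mdx and 15047, 15788 and 38365 in dko. All 3 tissues overlapped on this probe set. The dimmer probe set 162032_f_at read 11078, 10166 and 22599.7 in mdx extraocular muscle and 9934, 10688 and 20673 in dko extraocular muscle. Leg gave 17656, 22649.9 and 31798 in mdx and 9580.1, 3818 and 23568 in dko. Heart gave 2711, 9943 and 6862 in mdx and 3802, 9662 and 10410.1 in dko. On the dimmer set the mdx heart arrays lay below all mdx leg arrays, and the difference of -1.997 ± 0.61 passed in both fits (adjusted p = 0.0474 without the block). Without the block it was lost on leaving out any of the 6 arrays compared other than array 2 of mdx heart (adjusted p up to 0.216), and with the block it held each time. The brighter set differed by 1.46 ± 0.98 in the opposite direction and did not pass (adjusted p = 0.482). The dimmer set carries the suffix _f_at, as those of Aldoa do, and may also read related transcripts.

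Ldha encodes the A subunit of lactate dehydrogenase. It read 28875, 18116 and 43451 in mdx extraocular muscle and 21789, 27969 and 54331 in dko extraocular muscle. In leg it read 651.3, 239.5 and 40802 in mdx and 8905, 1485 and 26096 in dko. Heart gave 17410, 12171 and 37299 in mdx and 13919, 13832 and 43222 in dko. The mdx leg values were the most scattered of any group, and array 3 of mdx leg was as bright as array 3 of the other tissues. Extraocular muscle exceeded leg by 3.58 ± 1.30 in mdx and heart exceeded leg by 3.07 ± 1.30. On all arrays these passed with the block but not without it (adjusted p = 0.178 and 0.179 without, 0.014 and 0.0188 with it). In the blocked fit each call was lost without array 1 or array 2 of either tissue compared, where the adjusted p rose to at most 0.0836 and 0.111. Without array 3 of mdx leg the differences grew to 5.63 and 5.13 and passed without a block (adjusted p = 0.00272 and 0.00145). The mdx leg readings left in that fit were the low ones, 651.3 and 239.5.

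Ldhb, the B subunit, had the widest range of group means among the brightest probe sets of the 9 genes. Probe set 101990_at read 10754, 12029 and 18583 in mdx heart and 8880.1, 14166 and 30863 in dko heart. Extraocular muscle gave 5985, 4630.4 and 9347 in mdx and 4277, 3402 and 7081 in dko. Leg gave 1178, 746.5 and 2034 in mdx and 1134, 466 and 1412 in dko. Within each genotype every heart array lay above every extraocular array and every extraocular array above every leg array. The highest group mean, 17970 ± 11500 in dko heart, was 17.9 times the lowest, 1004 ± 486 in dko leg. Against leg, Ldhb was 9.74-fold higher in mdx heart (3.28 ± 0.47, adjusted p = 0.000173) and 14.6-fold higher in dko heart (3.87, adjusted p = 3.1e-05). Extraocular muscle exceeded leg by 4.7-fold in mdx (adjusted p = 0.0134) and 4.46-fold in dko (adjusted p = 0.0248). The mdx extraocular call was lost without array 2 of mdx leg (adjusted p = 0.0788) or array 3 of mdx extraocular muscle (0.0642). The dko one was lost without array 1 or 2 of dko leg (adjusted p = 0.0549 and 0.134) or array 1 or 3 of dko extraocular muscle (0.072 and 0.12). With the block the calls against leg held with each array left out in turn. Extraocular muscle differed from heart by -1.71 in dko (adjusted p = 0.0353) and by -1.05 in mdx, where it passed only with the block (adjusted p = 0.266 without and 0.00948 with it). That mdx call was lost in the blocked fit without array 2 of mdx heart (adjusted p up to 0.0541). The dko difference was lost without a block on leaving out arrays 1 or 2 of extraocular muscle (adjusted p = 0.106 and 0.148) or 2 or 3 of heart (0.0776 and 0.181). The other Ldhb probe set, 161945_at, read 16.4 to 220.4 over the 18 arrays and was too dim to be tested.

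**Figure D2:**
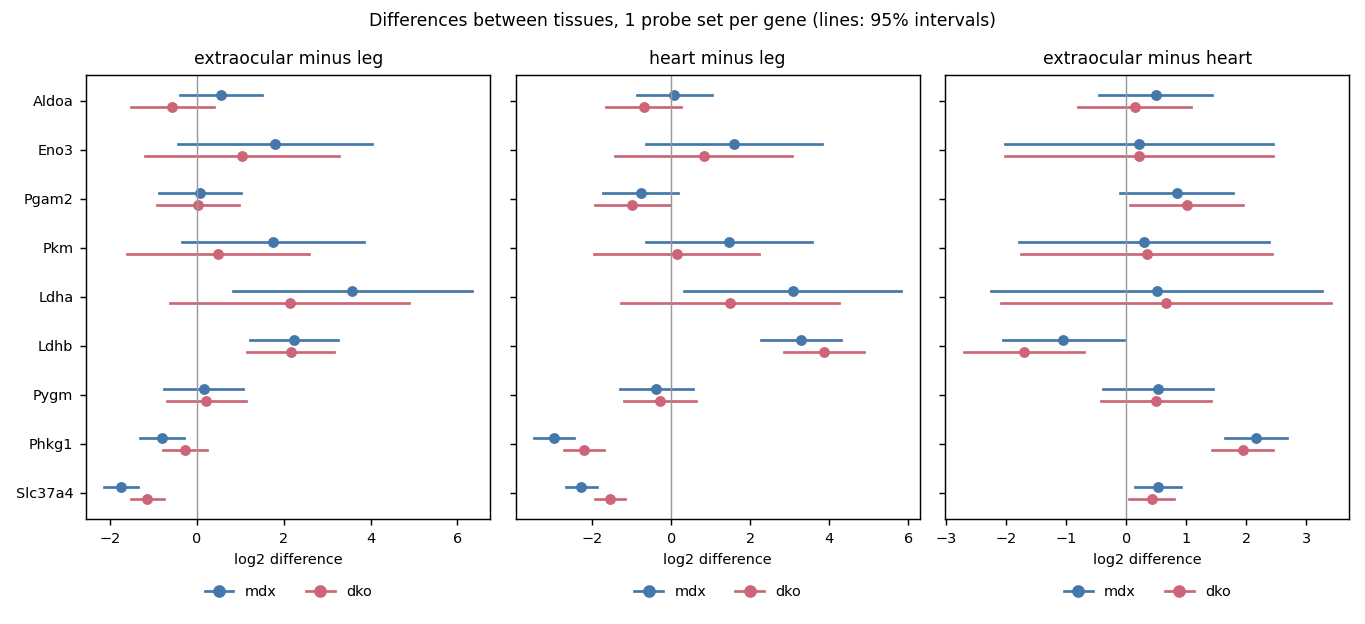
Log2 difference between tissues for the brightest probe set of each of the 9 genes, within mdx (blue) and within dko (red); points are limma estimates without the replicate block and lines their 95% intervals. In heart minus leg, Ldhb lies to the right of 0 and Phkg1 and Slc37a4 to the left in both genotypes. The interval of Ldha there also lies to the right in mdx (0.32 to 5.83) and that of Pgam2 to the left in dko (-1.93 to -0.04). The intervals of Aldoa, Eno3, Pkm and Pygm cross 0 in all 3 panels.

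Counting each gene once by its brightest probe set, 2 of 9 passed between mdx extraocular muscle and mdx leg, against 4.01% of all probe sets tested, with Ldhb higher and Slc37a4 lower in extraocular muscle. Between mdx heart and mdx leg 3 of 9 passed (9.96% of all), with Ldhb higher and Phkg1 and Slc37a4 lower in heart. Phkg1 alone passed between mdx extraocular muscle and mdx heart (7.05% of all). In dko 2 of 9 passed for extraocular muscle against leg (2.06% of all), Ldhb higher and Slc37a4 lower, and 3 of 9 for heart against leg (10.7% of all), Ldhb higher and Phkg1 and Slc37a4 lower. For dko extraocular muscle against dko heart 2 of 9 passed (7.59% of all), Phkg1 higher and Ldhb lower. With the block the mdx counts were 4, 5 and 4 of 9 in the same order (12.4%, 22.8% and 17.6% of all) and the dko counts 2, 4 and 3 (7.58%, 23.5% and 18.5% of all). The median log2 difference of the 9 genes was 0.56 for mdx extraocular muscle against leg (-0.03 over all probe sets tested), 0.07 for mdx heart against leg (-0.0018) and 0.50 for mdx extraocular muscle against heart (-0.02). Comparisons that share a tissue share its arrays.

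The difference log2 Ldhb minus log2 Ldha on each array, with the same offset, sets the subunits side by side. Since probe sets differ in brightness, its zero has no meaning and only its change between groups can be read. It was -2.24, -1.93 and -2.20 in mdx extraocular muscle and -2.31, -2.98 and -2.91 in dko extraocular muscle. Heart gave -0.69, -0.02 and -0.999 in mdx and -0.64, 0.03 and -0.48 in dko. All 6 heart arrays lay above all 6 extraocular arrays. Leg gave 0.72, 1.17 and -4.22 in mdx and -2.80, -1.38 and -4.06 in dko. The leg arrays ran from above the heart arrays to below the extraocular arrays, following the Ldha readings of single arrays, so leg could not be placed in the order by this measure. No test was made of it.

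**Figure D3:**
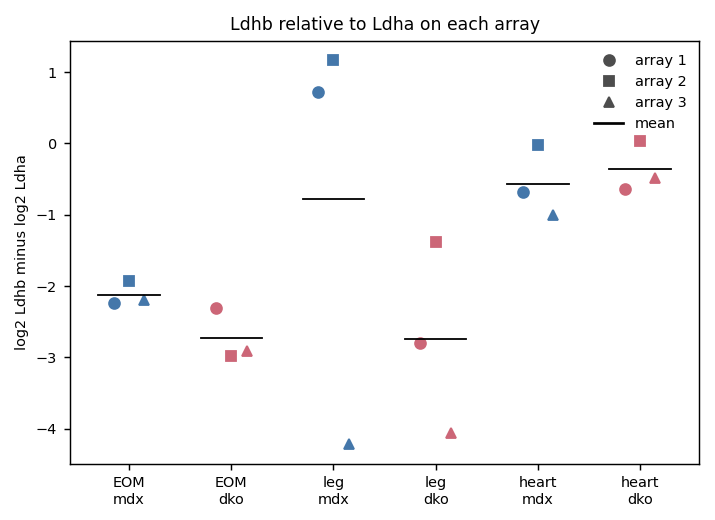
Log2 Ldhb minus log2 Ldha on each of the 18 arrays (EOM, extraocular muscle; blue mdx, red dko); symbols are arrays 1, 2 and 3 and bars the mean of 3. Heart lies between -0.999 and 0.03, extraocular muscle between -2.98 and -1.93, and leg from -4.22 to 1.17.

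The study's main comparison asked what changes when dko mice are set against mdx mice in each tissue. None of the 9 genes passed without the block in extraocular muscle (0.0225% of all probe sets tested), in leg (0.0562%) or in heart (0%). Over all probe sets, limma gave 196, 556 and 130 at an unadjusted p under 0.05 in the 3 tissues. With the block 2 of 9 passed in leg (1.2% of all, and 0.191% in the lower direction), Phkg1 and Slc37a4, both lower in dko. In extraocular muscle and heart none passed with the block (0.157% and 0% of all; 717 and 493 at an unadjusted p under 0.05).

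Phkg1 averaged 4528 ± 1020 in dko leg against 8162 ± 1070 in mdx leg (SD, n = 3), 1.79-fold lower (log2 difference -0.84 ± 0.24, adjusted p = 0.345 without and 0.0298 with the block). The dko array was lower in 3 of 3 numbered pairs and the groups did not overlap, which held in this direction for 4.92% of all probe sets. The blocked call was lost without the arrays numbered 1 (-0.79, adjusted p = 0.105) or 2 (-0.76, adjusted p = 0.178) and held without those numbered 3 (-0.98, adjusted p = 0.0477). Slc37a4 averaged 3629 ± 375 in dko leg against 6821 ± 1520 in mdx leg, 1.82-fold lower (-0.86 ± 0.18, adjusted p = 0.127 without and 0.0328 with the block). Its groups did not overlap either, and dko was lower in 3 of 3 pairs. Its blocked call was lost without any 1 of the 3 numbers (adjusted p = 0.0812, 0.182 and 0.0695), while the difference stayed between -0.95 and -0.69. In extraocular muscle Slc37a4 was lower on all dko arrays than on all mdx arrays, as were 2.65% of all probe sets, but did not pass (-0.26 ± 0.18, adjusted p = 1, and 0.723 with the block). Phkg1 differed by -0.31 in extraocular muscle and -0.09 in heart, and its arrays overlapped in both.

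**Figure D4:**
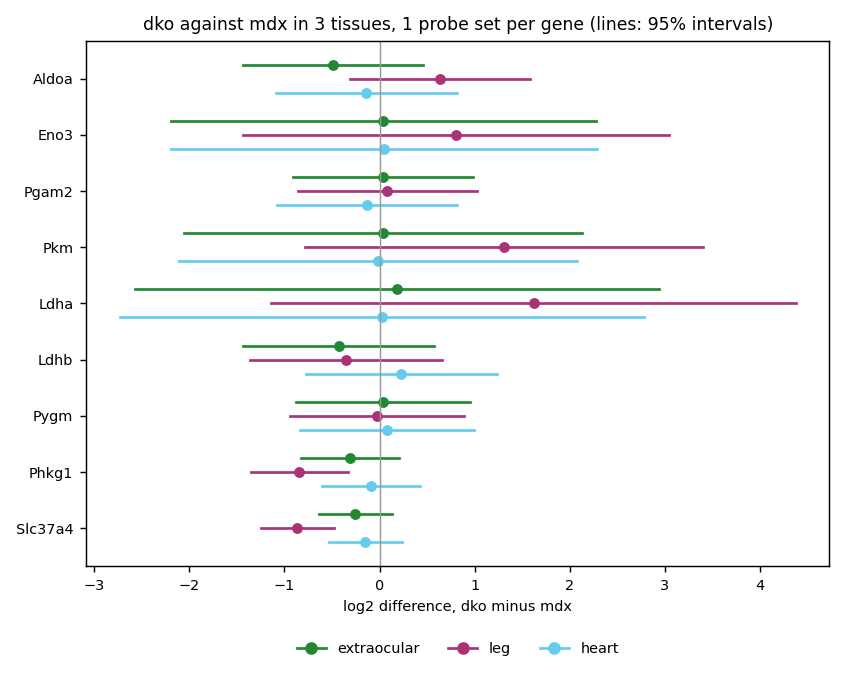
Log2 difference of dko from mdx in extraocular muscle, leg and heart for the brightest probe set of each of the 9 genes; points are limma estimates without the replicate block and lines their 95% intervals. Phkg1 and Slc37a4 in leg have intervals below 0 and the others in the plot cross 0, with the widest intervals for Ldha, Eno3 and Pkm.

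The remaining genes gave wide intervals in leg. The log2 difference of dko from mdx leg was 2.82 ± 1.35 for Aldoa on 160090_f_at (adjusted p = 0.818, and 0.0825 with the block) and 0.63 ± 0.45 on 161889_f_at. Pkm gave 1.31 ± 0.98 on 96066_s_at and -1.27 ± 0.61 on 162032_f_at (adjusted p = 0.805, and 0.0817 with the block), opposite in sign. Ldha gave 1.62 ± 1.30 on the log2 scale although its mean intensity was lower in dko (12160 against 13900), because array 3 carries most of the mean. On all arrays Ldha passed in neither fit (adjusted p = 0.183 with the block). In the blocked fit without the leg arrays numbered 3, Ldha was higher in dko leg by 2.75 and passed (adjusted p = 0.0165). The mdx leg readings left in that fit were 651.3 and 239.5. The blocked fit did not pass without the arrays numbered 1 or 2 (adjusted p up to 0.561). With all arrays numbered 3 left out and no block the difference did not pass (adjusted p = 0.253). Pgam2 and Pygm were near 0 (0.08 and -0.02), Eno3 gave 0.81 and Ldhb -0.35. By their brightest probe sets the 9 genes lay between -0.15 and 0.23 in heart and between -0.49 and 0.18 in extraocular muscle. Outside these ranges were Pkm on 162032_f_at in heart (0.34) and Aldoa on 160090_f_at in extraocular muscle (0.32). The median of the 9 was 0.08 in leg, 0.03 in extraocular muscle and -0.02 in heart, against -0.04, -0.0059 and -0.01 over all probe sets tested.

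Whether the dko change differed between tissues was tested directly. None of the 9 genes passed for leg against extraocular muscle, leg against heart or extraocular muscle against heart, with the block (0.0337%, 0.0675% and 0% of all probe sets passed) or without it (0% of all in each). For Phkg1 and Slc37a4 the leg difference was thus not shown to differ from that in the other tissues.

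The summed markers of slow and immature fibres were higher on all dko than on all mdx leg arrays, and their part in the Phkg1 and Slc37a4 values was not tested. All 9 slow fibre genes measured had positive differences, and their summed intensity was 27900 to 39180 on the mdx leg arrays and 101500 to 145900 on the dko ones. Without the block 1 of the 9 passed, Myh7 (0.0562% of all probe sets), and with it 7 (1.2% of all), Myh7, Myl2, Tnni1, Tnnt1, Tnnc1, Atp2a2 and Tpm3. The fast fibre sum overlapped, at 83340 to 454900 in mdx and 144800 to 304000 in dko, and 0 of 11 tested fast genes passed in either fit. All 15 macrophage genes had positive differences, with 0 past the threshold without the block and 4 with it, and their sums overlapped at 36120 to 70740 in mdx and 68250 to 132500 in dko. The immature fibre sum was 21500 to 30430 in mdx and 33320 to 49560 in dko, with positive differences for 9 of 9 genes, of which 1 passed without the block (Myh3) and 4 with it. Some of the listed genes were dim in leg. The fast fibre gene Myh2, too dim to be tested, averaged 139.2 in mdx and 87.13 in dko, and the macrophage gene Itgam averaged 121.2 in mdx. The presence of a cell type was not read from these values.

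Several bright probe sets of the pathway read very low on single leg arrays. Among 307 probe sets whose brightest leg reading exceeded 20000, 19 (6.19%) were below 10% of that reading on mdx array 2, and these included 4 of the 8 member probe sets among the 307. On mdx array 1 there were 8 (2.61%, 2 of them members) and on dko array 2 there were 10 (3.26%, 3 of them members). The other 3 leg arrays had 2 to 3 such probe sets and no member among them, and no extraocular or heart array had a member among them. Gapdh, a glycolytic enzyme used as a control on this array, was also lowest on array 2 of each genotype: its middle probe set read 6205, 1523 and 36881 in mdx leg and 21777, 1818 and 28464 in dko leg. Pgam2 and Pygm read 19116 or more on all 6 leg arrays. This count was chosen after the values were seen, and the cause of the low readings was not tested.

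**Figure D5:**
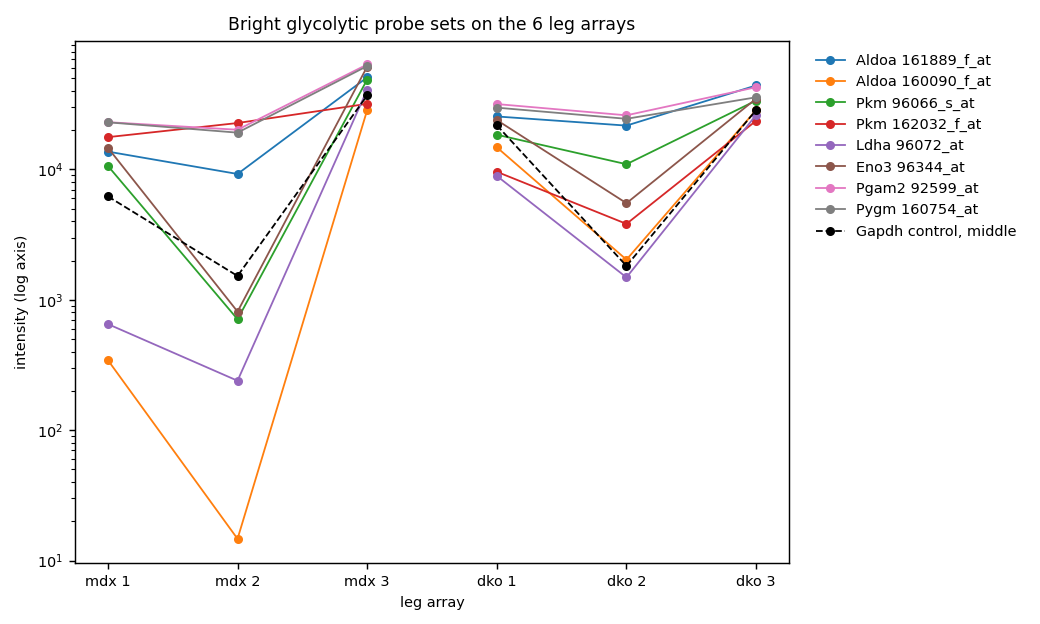
Intensity (log axis) of the 8 bright glycolytic and glycogenolytic probe sets and of the middle Gapdh control on the 6 leg arrays; lines join the arrays of a genotype for reading only and the numbers have no order. Aldoa 160090_f_at and Ldha span the widest ranges, with their lowest values on mdx array 2, whereas Pgam2 and Pygm stay between 19116 and 63715.

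The size of the replicate effect differed between the members. Averaged over the 6 groups, arrays numbered 3 lay above their group mean by 1.55 for Ldha, 1.54 for Aldoa on 160090_f_at, 1.08 for Pkm on 96066_s_at and 1.06 for Eno3 on the log2 scale. For Phkg1 the value was 0.21 and for Slc37a4 0.03. Phkg1 and Slc37a4 passed between tissues without the block. Ldhb, which also did, deviated by 0.62, and its array 3 was the highest in all 6 groups.

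The rest of the pathway was described from 3 lists. Of other glycolytic genes 16 of 24 were on the array and 13 were tested, of other glycogen genes 15 of 23 and 14, and of glucose and lactate transport and pyruvate genes 12 of 15 and 11. No gene of the 3 lists passed for genotype, whichever the tissue and with or without the block. Phka1, the muscle regulatory subunit that holds Phkg1 in phosphorylase kinase, averaged 4537 in dko leg and 7331 in mdx leg (-0.65, adjusted p = 0.608, and 0.143 with the block).

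In mdx heart against mdx leg 1 of the 14 glycogen genes was higher and 6 were lower without the block (9.96% of all probe sets passed), and 1 and 7 with it (22.8% of all). The list's median was -0.50, against -0.0018 over all probe sets tested. The 1 higher gene was Pygb, the brain form of phosphorylase, at 8891 in heart and 339.5 in leg (4.22, adjusted p = 6.31e-07). The lower genes included Phka1, at 1006 against 7331 (-2.64, adjusted p = 1.78e-06), and Gys1, muscle glycogen synthase, at 7458 against 23300 (-1.56, adjusted p = 0.00606). In mdx extraocular muscle against leg 2 glycogen genes were lower and 0 higher (4.01% of all passed), Ppp1r3c (-1.70), a subunit that brings a phosphatase to glycogen, and Phka1 (-1.59). Against heart (7.05% of all passed), mdx extraocular muscle was higher for 3, among them Gys1 (1.75) and Ugp2 (1.30), which makes UDP-glucose, and lower for Pygb (-3.79). The median there was 0.16, against -0.02 over all probe sets tested. In mdx, Phka1 followed the order of Phkg1 and Slc37a4, leg over extraocular muscle over heart.

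Of the 13 glycolytic genes 2 were higher and 0 lower in mdx heart than in mdx leg without the block (9.96% of all probe sets passed), and 3 and 1 with it (22.8% of all). The 2 were the liver and platelet forms of phosphofructokinase, Pfkl (1.91, adjusted p = 1.89e-05) and Pfkp (1.64, adjusted p = 0.00696). The list's median was -0.34. None of the 13 passed between mdx extraocular muscle and leg without the block (4.01% of all passed). Pfkl was among 2 that were lower in extraocular muscle than in heart (-1.44), where 7.05% of all passed. Of the 11 transport and pyruvate genes 1 was higher and 0 lower in mdx extraocular muscle than in leg without the block (4.01% of all). Against heart 2 were higher and 1 lower (7.05% of all), and in heart against leg 1 was higher and 2 lower (9.96% of all). The glucose transporter gene Slc2a1 was higher in mdx extraocular muscle than in leg (1.13, adjusted p = 0.0197) and than in heart (1.08). Slc2a1 was dim, with means of 518 in mdx extraocular muscle, 149.2 in leg and 159.1 in heart, the last 2 below the offset of 166.1. Slc16a1, a lactate transporter, was lower in mdx extraocular muscle than in heart (-2.08, adjusted p = 0.00151). Gpd1, which links glycolysis to glycerol phosphate, was lower in mdx heart than in leg (-2.64, adjusted p = 0.00144).

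Within the 9 genes, correlations of log2 values over the 18 arrays describe which moved together; the arrays share tissues, genotypes and replicate numbers. Pkm and Eno3 reached 0.96, Pgam2 and Pygm 0.91, Ldha and Eno3 0.90, and Phkg1 and Slc37a4 0.82. Pkm, Eno3 and Ldha all had their lowest reading on array 2 of mdx leg (709.2, 811.6 and 239.5). How much such low leg readings raised these correlations was not tested. Ldhb ran against Slc37a4 (-0.85) and Phkg1 (-0.76). Eno3, Pgam2, Pygm and Phkg1 did not share 1 profile, with correlations between pairs from -0.26 (Eno3 and Phkg1) to 0.91 (Pgam2 and Pygm). Among 6506 genes outside the lists, the profile most like the mean of Eno3, Pgam2, Pygm and Phkg1 was that of Nfix, a transcription factor (r = 0.94 over 18 arrays and 0.98 over the 6 group means), followed by Ndrg2 (0.93), Lgals1 (0.92), Fhl1 (0.90) and Crhr2 (0.90). For Ldhb it was Nnt, the mitochondrial transhydrogenase (0.95 over 18 arrays and 0.99 over the 6 group means), followed by S100a1 (0.95), Fbln1 (0.95), Aldh2 (0.94) and Selenbp1 (0.94). Nnt averaged 22540 in mdx heart, 12770 in mdx extraocular muscle and 4461 in mdx leg.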

How the data were processed

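The deposited values were intensities on a linear scale that the authors had scaled; this was read from the values (trimmed mean, 2% from each tail, 1500.69 to 1501.15 on each array). Which software made them is not given in the sources used. Detection calls were not used. Depth has no equivalent here: the number of arrays limits the precision. Of 12488 probe sets, 66 controls were left out and 8895 above the 40th percentile of the array on at least 3 of 18 arrays were tested. Symbols came from GEO's platform annotation (10833 probe sets had 1 symbol, 396 several and 1193 none). Before log2, 166.1 was added to each value (the 25th percentile of each array, median over arrays). A mean for each of 6 groups was fitted with limma 3.58.1 (R 4.3.3) and p-values adjusted by Benjamini-Hochberg within a comparison, two-sided; the script was tested on simulated data. All member probe sets are named. Other pathway genes are named if called between dko and mdx, or among the 3 most different in each direction in an mdx tissue comparison, each by its brightest probe set. Genes alike in profile are the 5 with the highest correlation outside the lists. Members and lists were chosen with earlier results of these data known.

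The labels number the replicates without saying what a number marks. Deviations from group means correlated at 0.404 to 0.751 over the 9 pairs of a dko and an mdx array that share number and tissue, so the fits were repeated with that number as a block (within tissue for dko against mdx, over all arrays between tissues). Other scalings, offsets, filters, priors and left-out arrays were tried. Promoter windows and figures were read and drawn with Python 3.11.15, pandas 2.3.3 and matplotlib 3.10.9.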

Additional observations from a re-analysis of the deposited data

How the results depend on the processing

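The 3 arrays per group, the dependence of bright probe sets on the replicate number and the lack of a named animal behind each array limit all results. The count of the 9 genes past the threshold was 0 for dko against mdx in extraocular muscle and heart, and 0 for each difference between tissues, under all alternatives run, among them the replicate block. In leg it was 1 with 4 times the offset (Slc37a4, adjusted p = 0.0397), 2 with the replicate block and 2 with quantile normalization and the block together, an alternative added after seeing the data. Leaving out 1 array without the block gave 0 to 0 in each of these. The mdx count of extraocular muscle against leg was 2 and became 4 with the block, 4 with quantile normalization and the block, 4 without the arrays numbered 3, 3 with 4 times the offset and 1 when only the groups compared were fitted, and 1 to 4 on leaving out 1 array. Heart against leg in mdx was 3 and became 5 with the block, 5 with the block and quantile normalization together, 4 with quantile normalization alone, 4 without the arrays numbered 3, and 3 to 5 on leaving out 1 array. Extraocular muscle against heart in mdx was 1 and became 2 with quantile normalization, 4 with the block, 4 with both and 2 without the arrays numbered 3, and stayed 1 on leaving out 1 array. In dko, extraocular muscle against leg was 2 and became 1 without the arrays numbered 3 and 0 when only the groups compared were fitted, and 1 to 2 on leaving out 1 array. Extraocular muscle against heart in dko was 2 and became 3 with the block, 3 with quantile normalization, 3 with both, 3 without the arrays numbered 3, 1 with scaling to the 75th percentile, 1 with 0.25 times the offset, 1 when only the groups compared were fitted, and 1 to 2 on leaving out 1 array. Heart against leg in dko was 3 and became 4 with the block, 4 with quantile normalization, 4 with both and 4 without the arrays numbered 3, and stayed 3 on leaving out 1 array. No called difference of a member changed its direction in any of these fits. The Pgam2 calls gained with the block between heart and skeletal muscle were also gained with quantile normalization and no block (adjusted p 0.000615 to 0.0151). Without the arrays numbered 3 and with no block they were gained too (adjusted p 0.0047 to 0.0329), except mdx heart against leg (0.149). The cause of these shifts was not tested.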

Other observations

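The dko tissues, not described above for the wider pathway, gave the following values. In dko heart against dko leg 10.7% of all probe sets passed without the block, the share to set beside each count given here. Of 14 glycogen genes tested 1 was higher and 5 were lower. The higher one was Pygb, the brain form of phosphorylase, at 9618 in heart and 306.8 in leg (log2 difference 4.45, limma adjusted p = 3.13e-07). The lower ones were Phka1, the muscle regulatory subunit of phosphorylase kinase (-1.79, adjusted p = 0.000117), Gys1, muscle glycogen synthase (-1.41, adjusted p = 0.0112), Gbe1, the branching enzyme (-0.79), Gyg, the glycogenin that primes glycogen (-0.83), and Ppp1r3c, which brings a phosphatase to glycogen (-0.93). Of 13 glycolytic genes Pfkl, the liver form of phosphofructokinase, was the 1 that passed, higher in dko heart (1.91, adjusted p = 1.91e-05). Of 11 transport and pyruvate genes 2 were higher in dko heart than in dko leg, the lactate transporter gene Slc16a1 (mean intensity 1559 against 436.2) and the pyruvate dehydrogenase kinase gene Pdk1 (0.63), and 2 were lower, the glycerol phosphate dehydrogenase genes Gpd1 (-2.34) and Gpd2 (-1.13). Gbe1, Gyg, Ppp1r3c, Pdk1 and Gpd2 complete the calls of their lists and were named after their values were seen.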
